A study of Homo sapiens with 6 samples.

Results

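The genes described here encode the subunits, activators and assembly chaperones of the proteasome. Members were all genes with a symbol of PSMA, PSMB, PSMC, PSMD, PSME, PSMF or PSMG followed by a number, without PSMB8 and PSMB9. The rule was met by 43 of the 18417 genes measured, and PSMC5, PSMD7 and PSMD13 were not analysed here. Of the members, 17 belong to the core particle, 14 to the regulatory cap, 5 to the activators with the inhibitor PSMF1, and 7 are assembly chaperones. RNA came from A204 cells, a long-established human line derived from a rhabdoid tumour. Such childhood cancers typically lack the chromatin remodelling subunit SMARCB1. For the 3 SAHA arrays A204 cells were exposed for 12 h to SAHA, the histone deacetylase inhibitor vorinostat. For the 3 control arrays A204 cells received the solvent DMSO per the treatment protocol, although their treatment label reads none. No exposure time is labelled for the control arrays. The labels print the SAHA dose with an incomplete unit, so no concentration is stated.

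The proteasome is the main protease of the cytosol and nucleus, and it degrades proteins tagged with ubiquitin chains. Its core particle is a barrel of alpha rings that gate the channel and beta rings that hold the cutting sites. The cap binds ubiquitin chains, removes them and unfolds the substrate with a ring of ATPases, whereas the activators open the core without ubiquitin. Tumour cells that make much protein lean on this protease, and its chymotrypsin-like site is the target of the drug bortezomib.

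Levels are RMA signals in log2 units, and a change is the SAHA mean minus the control mean. A gene is called at an adjusted p under 0.05 in a limma fit over all genes with Benjamini-Hochberg adjustment. All adjusted p-values below come from that fit, which was two-sided. Whether the 3 arrays of each group represent separate cultures is not labelled, so the p-values reflect only array-to-array spread, which may be technical. RMA brings arrays to nearly the same distribution, so a change is relative to the other transcripts. In these bulk samples fewer cells of a kind and less RNA per cell cannot be told apart.

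The median signal per array lay between 148 and 149 on SAHA arrays and between 142 and 145 on control arrays, on the linear scale. Levels correlated at 0.997 to 0.998 within groups and at 0.973 to 0.974 between groups (Pearson, across probe sets, which are not independent). SMARCB1 was at 7.22 ± 0.05 in SAHA and 7.74 ± 0.04 in control (SD, n = 3 each), and no background call was made. Of 18 measured markers of blood, epithelial, endothelial and muscle cells, 5 were called higher and 3 lower in SAHA, a called share of 44.4% against 60.0% of all genes tested, and none was listed at 0. The summed linear signal of 4 endothelial markers was 1628 to 1698 on SAHA arrays and 6820 to 7093 on control arrays, carried by CDH5 (10.54 ± 0.03 in SAHA and 12.73 ± 0.03 in control). The other endothelial markers had positive changes, with KDR called higher (0.64) and VWF (0.22) and PECAM1 (0.13) not called. The sum of 5 blood cell markers was 2105 to 2189 on SAHA arrays and 639 to 682 on control arrays, carried by CD14, while the leukocyte marker PTPRC was at 4.08 ± 0.12 in SAHA and 4.05 ± 0.07 in control. The sum of 5 epithelial markers was 25473 to 26008 on SAHA arrays and 26237 to 26720 on control arrays. Within that list KRT19 (0.80) and EPCAM (0.14) were called higher, KRT18 (-0.21) and CDH1 (-0.17) lower, and KRT8 (-0.069) was not called. The sum of 4 muscle markers was 604 to 648 on SAHA arrays and 490 to 506 on control arrays, carried by DES (0.76, called higher). MYOG (0.12), MYOD1 (-0.12) and MYH3 (-0.15) were not called. All 5 proliferation genes fell, with a summed signal of 3718 to 3846 on SAHA arrays and 13221 to 13618 on control arrays. The part of any of these in the results below was not tested.

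The proteasome genes did not move as a block. Of the 43 members, 14 rose, 13 fell and 16 were not called, and no member changed 2-fold. Over all genes tested, 5.84% were called at least 2-fold higher and 5.42% at least 2-fold lower. The called share of 62.8% lies near the 60.0% of all genes tested, of which 31.1% were called higher and 28.9% lower. It lies below the 79.4% of the 9209 genes at or above the median level, where 39 of the 43 members lie. The SAHA arrays lay entirely above the control arrays for 18 members and entirely below for 15. Over all genes those shares were 33.8% and 31.6%, together 65.4%. The arrays overlapped for 10 of the 43 members, and for 1347 of the 9209 genes at or above the median level (3765 above and 4097 below). The median change of the members was 0.015, against -0.0027 for all genes, and it was -0.0028 after a further quantile normalization. Changes of the members were small. Their median size, regardless of sign, was 0.16, against 0.24 for all genes and 0.39 for the 9209 genes at or above the median level. Of 27 called members, 20 changed by less than 0.5 in size.

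**Figure D1:**
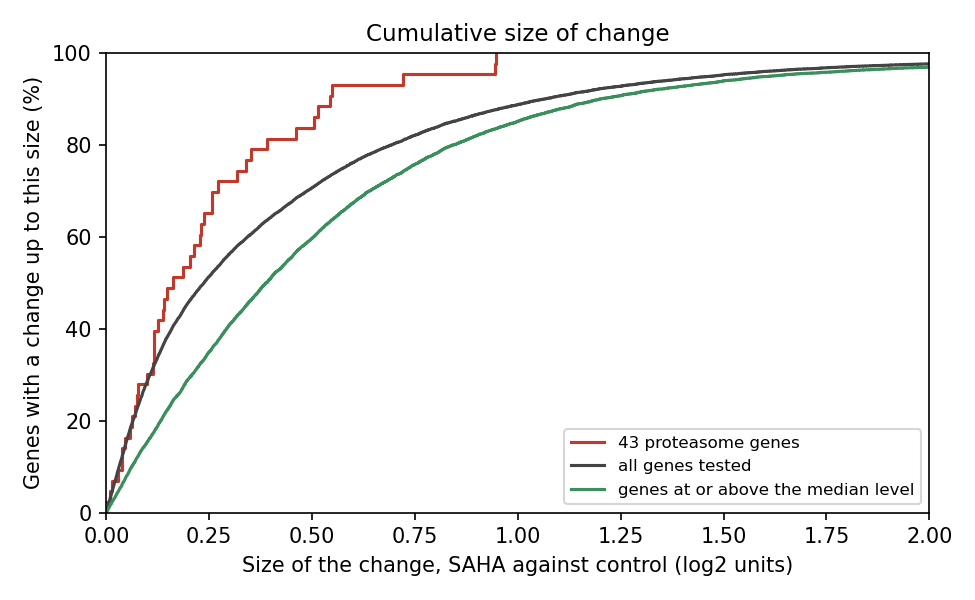
Cumulative share of genes (vertical axis, percent) with a change up to the size on the horizontal axis (log2 units, SAHA against control, sign ignored), for the 43 proteasome genes, all genes tested, and genes at or above the median level. The median size is 0.16 for the proteasome genes, 0.24 for all genes and 0.39 for the genes at or above the median level, and the curve of the proteasome genes ends below 1, a 2-fold change.

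By part, called genes divided as follows. In the core 3 rose and 5 fell of 17, in the cap 6 rose and 4 fell of 14, among the activators and PSMF1 4 rose and none fell of 5, and among the chaperones 1 rose and 4 fell of 7. Called shares were 47.1%, 71.4%, 80.0% and 71.4% in that order. Over all genes tested the share was 60.0% (31.1% higher and 28.9% lower), and 79.4% for genes at or above the median level. Counts and medians of the activators, here and below, include the inhibitor PSMF1, whose change of 0.13 is the median of that part. The count of 4 in that part was 2 after a further quantile normalization and with the replicate block. It was also 2 when any 1 array was left out other than control replicate 2, without which it was 3. Median centring and cyclic loess each gave 3. The median change was 0.0011 for the core (-0.044 after a further quantile normalization and -0.025 with cyclic loess), 0.056 for the cap (0.023 after a further quantile normalization), 0.13 for the activators and -0.21 for the chaperones (-0.12 over the 6 of them at or above the median level). Taken per array against each gene's control mean, the chaperone median was -0.21, -0.18 and -0.20 on the SAHA arrays, against 0.017, -0.037 and 0.019 on the control arrays. The activator median was 0.13, 0.12 and 0.13 on the SAHA arrays, against 0.026, -0.036 and 0.0066 on the control arrays. For the core the same values were 0.015, -0.024 and -0.015 on SAHA arrays, against -0.0049, -0.010 and 0.023 on control arrays, so the groups overlapped. For the cap they were 0.052, 0.077 and 0.038 on SAHA arrays, against 0.019, -0.0051 and -0.00073 on control arrays. Whether the parts differ from each other was not tested.

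**Figure D2:**
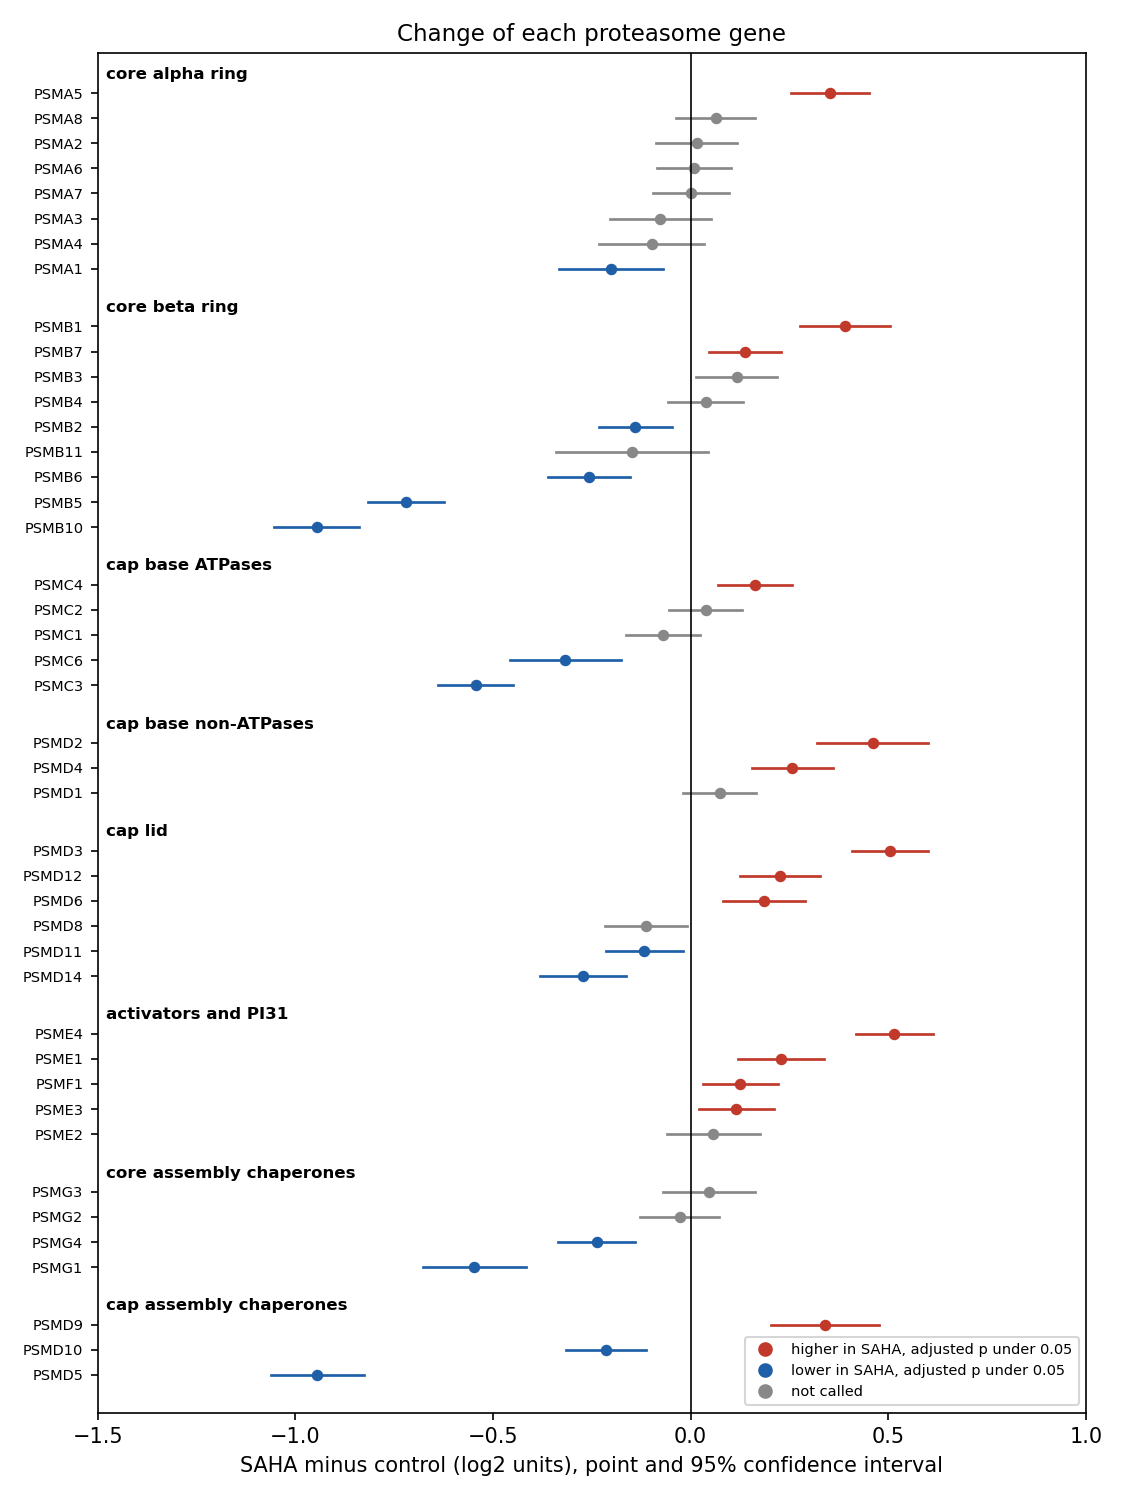
Change of each of the 43 proteasome genes (horizontal axis, SAHA minus control, log2 units) with its 95% confidence interval from limma, not adjusted for the number of genes, grouped by place in the particle and ordered by change. Colours mark genes called higher, called lower and not called. PSMB10, PSMD5 and PSMB5 lie furthest to the left at -0.95, -0.94 and -0.72, and PSME4 and PSMD3 furthest to the right at 0.52 and 0.51.

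Upstream sequences of the 2 members that rose most, of the 3 that fell most and of the PSME1 and PSME2 pair are shown because they hold letters known as sites of factors that control proteasome genes. Each is the 250 bases before the annotated start in RefSeq (GRCh38.p14), read on the gene's strand. Capitals mark matches, on either strand, to TGACNNNGC (the core of the antioxidant response element, bound by NFE2L1 and NFE2L2), CCAAT (the box bound by NF-Y), CCGGAAG (an ETS site core) or GAAANNGAA (the core of the interferon-stimulated response element). PSMB5 has a second annotated start, and its upstream window shown is that of the more distal start. The window of the other PSMB5 start holds none of these letters.
PSME4, chr2:53970994-53971243, minus strand: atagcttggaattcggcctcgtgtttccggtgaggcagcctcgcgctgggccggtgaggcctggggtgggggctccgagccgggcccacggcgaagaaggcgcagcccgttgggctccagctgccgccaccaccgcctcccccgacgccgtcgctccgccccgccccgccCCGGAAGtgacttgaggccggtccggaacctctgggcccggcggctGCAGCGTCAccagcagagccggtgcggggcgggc
PSMD3, chr17:39980557-39980806, plus strand: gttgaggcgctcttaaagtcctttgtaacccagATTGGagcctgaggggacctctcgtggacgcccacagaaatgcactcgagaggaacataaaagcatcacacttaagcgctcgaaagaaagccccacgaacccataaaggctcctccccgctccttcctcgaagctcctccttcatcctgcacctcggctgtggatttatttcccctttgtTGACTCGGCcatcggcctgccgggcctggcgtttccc
PSMB10, chr16:67936851-67937100, minus strand: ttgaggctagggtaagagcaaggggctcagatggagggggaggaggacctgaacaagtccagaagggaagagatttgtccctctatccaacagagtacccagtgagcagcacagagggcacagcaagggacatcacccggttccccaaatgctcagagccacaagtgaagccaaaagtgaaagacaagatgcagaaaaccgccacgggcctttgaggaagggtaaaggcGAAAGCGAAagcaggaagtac
PSMD5, chr9:120842923-120843172, minus strand: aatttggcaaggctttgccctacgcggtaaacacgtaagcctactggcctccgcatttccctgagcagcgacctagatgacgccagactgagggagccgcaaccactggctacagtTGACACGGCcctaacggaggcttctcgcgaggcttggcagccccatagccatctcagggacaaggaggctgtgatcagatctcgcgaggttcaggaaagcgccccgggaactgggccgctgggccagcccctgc
PSMB5, chr14:23035221-23035470, minus strand: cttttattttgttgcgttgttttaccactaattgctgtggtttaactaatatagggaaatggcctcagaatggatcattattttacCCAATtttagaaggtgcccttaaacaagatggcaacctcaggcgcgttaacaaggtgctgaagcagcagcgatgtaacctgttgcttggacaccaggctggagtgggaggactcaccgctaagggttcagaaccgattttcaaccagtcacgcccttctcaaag
PSME1, chr14:24135944-24136193, plus strand: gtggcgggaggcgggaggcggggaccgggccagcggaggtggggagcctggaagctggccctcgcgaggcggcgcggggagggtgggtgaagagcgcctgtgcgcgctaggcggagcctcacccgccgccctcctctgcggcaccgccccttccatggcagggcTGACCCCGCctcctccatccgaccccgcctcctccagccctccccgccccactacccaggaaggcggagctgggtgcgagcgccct
PSME2, chr14:24146611-24146860, minus strand: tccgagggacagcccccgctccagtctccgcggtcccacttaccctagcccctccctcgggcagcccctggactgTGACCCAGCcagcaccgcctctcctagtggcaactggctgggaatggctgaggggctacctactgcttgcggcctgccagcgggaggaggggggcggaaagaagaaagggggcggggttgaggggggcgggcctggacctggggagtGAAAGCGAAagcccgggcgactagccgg

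PSME4, PSMD3, PSMD5, PSME1 and PSME2 each hold a TGACNNNGC match, PSMB10 and PSME2 a GAAANNGAA match, PSMD3 and PSMB5 a CCAAT match, and PSME4 a CCGGAAG match. Of the next largest falls, not shown, the window of PSMG1 holds TGACNNNGC and CCAAT and that of PSMC3 holds CCAAT. The sequence table held 44 windows for 37 of the 43 members, without PSMA7, PSMB1, PSMB6, PSMB7, PSMD4 and PSMG3. TGACNNNGC was present in 25.0% of the members' windows, against 10.9% of all 35116 windows of this length. The shares were 36.4% and 32.0% for CCAAT, 22.7% and 8.52% for CCGGAAG, and 11.4% and 6.88% for GAAANNGAA. By direction, TGACNNNGC was found in 5 of 11 members that rose, 2 of 12 that fell and 4 of 14 that were not called. GAAANNGAA was found in 0 of 11 that rose, 2 of 12 that fell and 3 of 14 not called. For CCAAT these counts were 4 of 11, 5 of 12 and 7 of 14, and for CCGGAAG 5 of 11, 2 of 12 and 3 of 14. A match is a description of the letters, some genes have several windows, and no test was made.

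In the beta rings, which carry the proteolytic sites, 2 of 9 measured genes rose and 4 fell, with a median change of -0.14. The called share was 66.7%, against 60.0% of all genes tested and 79.4% of genes at or above the median level. PSMB5, the subunit with chymotrypsin-like activity, was at 11.14, 11.21 and 11.16 on the SAHA arrays, against 11.90, 11.89 and 11.89 on the control arrays. The groups did not overlap, and PSMB5 fell 1.65-fold (change -0.72 ± 0.041 SE, adjusted p = 1.74e-06). PSMB6, the caspase-like subunit, was at 12.71, 12.70 and 12.73 on SAHA arrays, against 12.96, 12.92 and 13.03 on control arrays, a fall of smaller size (-0.26, adjusted p = 0.00117). PSMB7, the trypsin-like subunit, went the other way, at 11.87, 11.85 and 11.85 on SAHA arrays, against 11.74, 11.72 and 11.70 on control arrays. It was called higher by 0.14 (adjusted p = 0.0161). That call ended after a further quantile normalization (adjusted p = 0.0526), with the replicate number as a block (0.0530) and without SAHA replicate 1 (0.0594).

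PSMB10, which replaces PSMB7 in the interferon-inducible immunoproteasome, had the largest change of any member. Its level was 7.33, 7.30 and 7.35 on the SAHA arrays, against 8.23, 8.34 and 8.25 on the control arrays. All SAHA values were lower, and PSMB10 fell 1.93-fold (change -0.95 ± 0.046 SE, adjusted p = 7.10e-07). Within arrays the change of PSMB10 was 1.08 log2 units below that of PSMB7 (exact permutation test over 6 arrays, two-sided, p = 0.10, which is the smallest p that 3 arrays against 3 allow, and 0.10 adjusted over 3 pairs). PSMB1, a structural beta subunit, was the other gene that rose, at 11.52, 11.48 and 11.50 on SAHA arrays, against 11.06, 11.07 and 11.19 on control arrays (change 0.39 ± 0.049 SE, adjusted p = 0.000175). PSMB2, a structural subunit, fell by 0.14 (adjusted p = 0.0152), a call that ended with the replicate block (0.0519) and without SAHA replicate 2 (0.0576). PSMB3 at 0.12 (adjusted p = 0.0501) and PSMB4 at 0.038 (adjusted p = 0.466) were not called, although all SAHA values lay above all control values for both. The sign of PSMB4 turned after a further quantile normalization (-0.0028). The thymus-specific PSMB11 was at 5.55 ± 0.07 in SAHA and 5.69 ± 0.16 in control (SD, n = 3 each, adjusted p = 0.161).

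Of the 8 alpha ring genes, whose products gate the entry to the core, 6 were not called, the lowest called share of any subgroup (25.0%). Over all genes tested the share was 60.0%, and 79.4% for genes at or above the median level. PSMA5 was at 11.08, 11.10 and 11.12 on SAHA arrays, against 10.76, 10.70 and 10.77 on control arrays. It rose without overlap of the groups (change 0.35 ± 0.043 SE, adjusted p = 0.000146). PSMA1 was at 12.29, 12.27 and 12.25 on SAHA arrays, against 12.51, 12.37 and 12.55 on control arrays, and fell by 0.20 (adjusted p = 0.0146). For PSMA7 the change was 0.0011 with a 95% confidence interval of -0.094 to 0.097, for PSMA6 it was 0.0089 (-0.085 to 0.10) and for PSMA2 0.015 (-0.088 to 0.12). The signs of PSMA2 and PSMA6 turned after a further quantile normalization (-0.042 and -0.044) and with cyclic loess (-0.017 and -0.025). PSMA3 was at -0.077 (-0.20 to 0.051) and PSMA4 at -0.099 (-0.23 to 0.034). PSMA8, a testis-specific copy of PSMA7, was at 3.90 ± 0.02 in SAHA and 3.84 ± 0.04 in control (SD, n = 3 each). The change of PSMA8 minus that of PSMA7 was 0.062 within arrays (exact permutation test, two-sided, p = 0.10). No smaller p is possible with 3 arrays against 3, so this test cannot decide whether these genes differ. Whether PSMA8 lies above background is not known.

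In the cap the SAHA and control arrays did not overlap for any of the 14 measured genes, 8 of them above and 6 below. Over all genes 65.4% did not overlap, 33.8% above and 31.6% below. Of the 9209 genes at or above the median level, where all 14 lie, 3765 lay above, 4097 below and 1347 overlapped. Among the base ATPases, which unfold substrates, PSMC3 was at 10.45, 10.47 and 10.45 on SAHA arrays, against 10.96, 11.03 and 11.01 on control arrays. It fell 1.46-fold (change -0.54 ± 0.041 SE, adjusted p = 8.58e-06). PSMC6 was at 10.41, 10.32 and 10.22 on SAHA arrays, against 10.67, 10.57 and 10.66 on control arrays. It fell by 0.32 (adjusted p = 0.00203), and its second probe set gave -0.25 (adjusted p = 0.00153 over all probe sets). PSMC4 was the ATPase that rose, at 12.69, 12.70 and 12.70 on SAHA arrays, against 12.56, 12.54 and 12.50 on control arrays (change 0.16, adjusted p = 0.00845, and 0.11 after a further quantile normalization). PSMC2 at 0.038 (adjusted p = 0.455) and PSMC1 at -0.071 (adjusted p = 0.171) were not called, and the second probe set of PSMC1 gave -0.068. RefSeq lists pseudogenes for 20 of the 43 members, 13 of them for PSMC1 alone, and signal shared with such copies was not tested. For PSMC1 and PSMC6 in particular, the brighter probe set used here may measure a pseudogene copy, which was not tested. Both genes lie on chromosome 14. By its number, the brighter probe set of each lies outside the range of the other members on that chromosome, and the second probe set lies within it.

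For the 3 measured non-ATPase genes of the base all SAHA arrays lay above the control arrays, and 2 were called higher. Over all genes tested 33.8% lay above and 31.1% were called higher. Of the 9209 genes at or above the median level, 3765 lay above. PSMD2, a large scaffold of the base and a docking site for shuttle factors and the deubiquitinase USP14, was at 12.20, 12.35 and 12.22 on SAHA arrays, against 11.89, 11.74 and 11.76 on control arrays. It rose 1.38-fold (change 0.46 ± 0.060 SE, adjusted p = 0.000233). PSMD4, a ubiquitin receptor, was at 8.76, 8.70 and 8.68 on SAHA arrays, against 8.47, 8.48 and 8.42 on control arrays, and rose by 0.26 (adjusted p = 0.00111). PSMD1, the other large scaffold, was at 0.074 and was not called (adjusted p = 0.151).

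The lid, which holds the deubiquitinase that cuts chains off the substrate, was split. PSMD3, a lid scaffold subunit, was at 12.49, 12.54 and 12.49 on SAHA arrays, against 12.03, 11.99 and 11.98 on control arrays. This 1.42-fold rise (change 0.51 ± 0.041 SE, adjusted p = 1.34e-05) was the largest in the cap. PSMD12 and PSMD6, also scaffold subunits, rose by 0.23 (adjusted p = 0.00212) and 0.19 (adjusted p = 0.00684). PSMD14, the deubiquitinase itself, was at 11.16, 11.16 and 11.14 on SAHA arrays, against 11.44, 11.35 and 11.48 on control arrays, and fell by 0.27 (adjusted p = 0.00117). PSMD11, a scaffold subunit, was at 12.17, 12.24 and 12.19 on SAHA arrays, against 12.31, 12.32 and 12.32 on control arrays. It was called lower by 0.12 (adjusted p = 0.0400), but the call ended with the replicate block (0.0937) and without SAHA replicate 1 or 3 or without control replicate 1, 2 or 3, with adjusted p up to 0.135. PSMD8 was at -0.11 and was not called (adjusted p = 0.0600).

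**Figure D3:**
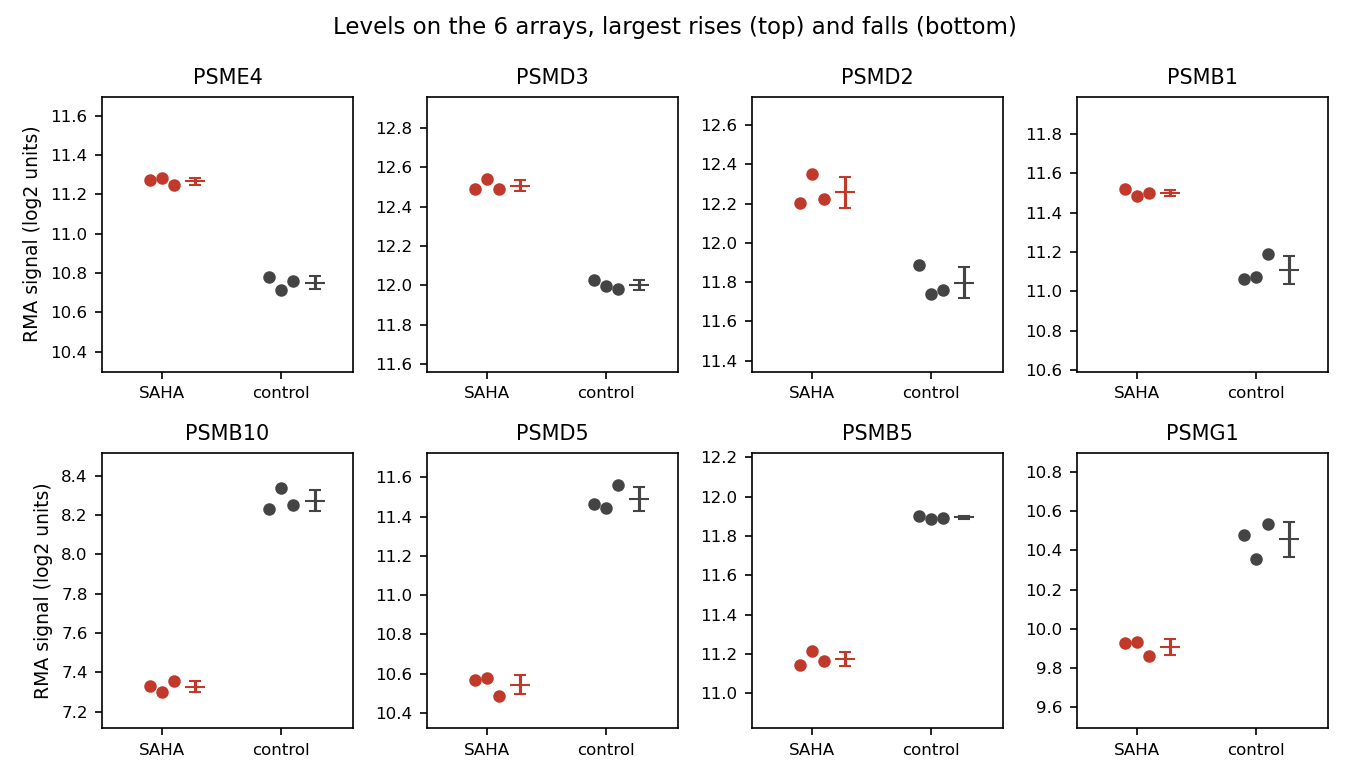
RMA signal (vertical axis, log2 units, each panel spanning the same range) on the 3 SAHA and 3 control arrays for the 4 largest rises (top) and the 4 largest falls (bottom) among called proteasome genes. Points are arrays, and the bar beside them is the mean ± SD. In each panel the groups do not overlap, with PSME4 at 11.27 ± 0.02 in SAHA and 10.75 ± 0.03 in control, and PSMB10 at 7.33 ± 0.03 in SAHA and 8.27 ± 0.05 in control.

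All 5 measured genes of the activators and PSMF1 had a positive change, and 4 were called higher. Their called share of 80.0% compares with 60.0% of all genes tested and 79.4% of genes at or above the median level. PSME4, a nuclear activator known from work in mice for degrading acetylated histones in male germ cells, was at 11.27, 11.28 and 11.25 on SAHA arrays. The control arrays gave 10.78, 10.72 and 10.76. Its 1.43-fold rise (change 0.52 ± 0.042 SE, adjusted p = 1.24e-05) was the largest of any member. PSME1, the alpha subunit of the interferon-inducible activator, was at 11.89, 11.87 and 11.84 on SAHA arrays, against 11.62, 11.58 and 11.70 on control arrays, and rose by 0.23 (adjusted p = 0.00308). Its partner PSME2, the beta subunit, was at 11.66, 11.65 and 11.69 on SAHA arrays, against 11.65, 11.52 and 11.66 on control arrays. The groups overlapped and PSME2 was not called (0.057, 95% confidence interval -0.061 to 0.17, adjusted p = 0.373). Within arrays the change of PSME2 was 0.17 log2 units below that of PSME1 (exact permutation test, two-sided, p = 0.10). No smaller p is possible with 3 arrays against 3, so this test cannot decide whether these genes differ.

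PSME3, the nuclear activator that forms a ring of its own, was at 12.53, 12.52 and 12.50 on SAHA arrays, against 12.43, 12.37 and 12.41 on control arrays, a change of 0.12 (adjusted p = 0.0398). PSMF1, a proteasome inhibitor in the test tube, was at 11.95, 11.94 and 11.95 on SAHA arrays, against 11.80, 11.86 and 11.80 on control arrays, a change of 0.13 (adjusted p = 0.0270). Leaving out any 1 of the 6 arrays ended the PSME3 call, and leaving out any 1 but control replicate 2 ended the PSMF1 call. The replicate block and a further quantile normalization also ended both calls. Median centring and cyclic loess ended the PSME3 call as well. Over all alternatives the adjusted p ran from 0.00254 to 0.12 for PSME3 and from 0.00217 to 0.104 for PSMF1. After a further quantile normalization 2 of the 5 genes, PSME4 and PSME1, remained called.

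Assembly chaperones, which build the particle and leave it, were lower in 4 of 7 cases and higher in 1. Their called share was 71.4%, against 60.0% of all genes tested and 79.4% of genes at or above the median level. PSMD5, which binds ATPases of the base during assembly, was at 10.57, 10.58 and 10.49 on SAHA arrays, against 11.46, 11.45 and 11.56 on control arrays. It fell 1.92-fold (change -0.94 ± 0.051 SE, adjusted p = 1.20e-06). PSMD10, known as gankyrin and as an oncoprotein of liver cancer, fell by 0.21 (adjusted p = 0.00286). PSMD9, the other base chaperone, was at 9.42, 9.36 and 9.53 on SAHA arrays, against 9.13, 9.14 and 9.02 on control arrays, and rose by 0.34 (adjusted p = 0.00121).

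Of the core chaperones, which act in pairs on the alpha ring, PSMG1 was at 9.93, 9.93 and 9.86 on SAHA arrays, against 10.48, 10.36 and 10.53 on control arrays. It fell 1.46-fold (change -0.55 ± 0.056 SE, adjusted p = 5.52e-05). Its partner PSMG2 was not called (-0.028, 95% confidence interval -0.13 to 0.071, adjusted p = 0.608). In the other pair PSMG4 fell by 0.24 (adjusted p = 0.00127, and by 0.36 after a further quantile normalization) and PSMG3 was not called (0.046, 95% confidence interval -0.070 to 0.16, adjusted p = 0.468).

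Of 11 measured proteasome partners without a PSM symbol 6 rose and 3 fell, with a median change of 0.23. Their called share was 81.8%, against 60.0% of all genes tested and 79.4% of genes at or above the median level. The median size of their changes was 0.32, against 0.16 for the members. ECPAS, an adaptor that binds core and cap together, fell 4.49-fold, to 8.74 ± 0.04 in SAHA, against 10.90 ± 0.02 in control (adjusted p = 1.20e-08). PAAF1, an ATPase-binding chaperone, fell by 0.63 and UCHL5, a deubiquitinase, by 0.44. UCHL5 is held in the cap by the ubiquitin receptor ADRM1, which rose by 0.46. ZFAND5, a proteasome activator in muscle wasting, rose by 0.66. UBE3C, a ubiquitin ligase at the cap, rose by 0.32, TXNL1, a redox protein of the cap, by 0.30, AKIRIN2, which brings proteasomes into the nucleus, by 0.26, and POMP, the core maturation factor, by 0.23.

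Of 8 measured regulators of proteasome gene transcription 2 rose and 4 fell. Their called share was 75.0%, against 60.0% of all genes tested and 79.4% of genes at or above the median level. NFE2L1, the factor that raises proteasome genes when the protease is inhibited, rose to 11.94 ± 0.04 in SAHA, against 11.58 ± 0.01 in control (change 0.37, adjusted p = 9.44e-05). NGLY1, the enzyme that removes sugars from NFE2L1 and so activates it, fell by 0.28 (adjusted p = 0.000796). NFYC, a subunit of the CCAAT-binding factor NF-Y, fell 2.14-fold, NFYB fell by 0.25 and NFYA was not called (0.071, adjusted p = 0.224). Of the small MAF partners, MAFF rose by 0.55 and MAFG fell by 0.37, or by 0.20 as the mean of its probe sets. NFE2L2 was not called (-0.052, adjusted p = 0.493).

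Upstream of the proteasome, UBA1, the main ubiquitin-activating enzyme, rose by 0.45 and the ubiquitin gene UBB by 0.19, while UBA6 was not called, so 2 of 3 measured genes rose. Of 9 genes of the segregase VCP and of shuttle factors, 3 rose and 2 fell. UFD1 (0.57), NPLOC4 (0.34) and NSFL1C (0.26), cofactors of VCP, rose, the ubiquilins UBQLN4 (-0.52) and UBQLN2 (-0.24) fell, and VCP itself was at -0.018 (adjusted p = 0.723). Of 4 measured interferon regulators, IRF9 (0.82) and IRF1 (0.21) rose and IRF2 fell (-0.19, adjusted p = 0.0240). The IRF2 call ended without SAHA replicate 2 (0.0862) and without control replicate 2 (0.0628) or 3 (0.0672), after a further quantile normalization (0.0730) and with the unmoderated test (0.0664). Called shares were 66.7% of the ubiquitin and UBA genes, 55.6% of the VCP and shuttle genes and 75.0% of the interferon regulators. Over all genes tested 60.0% were called, and 79.4% of genes at or above the median level.

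Complexes with subunits related to those of the lid were also measured. Of 9 genes of the COP9 signalosome, which resembles the lid, 4 rose and 2 fell, with a median of 0.0085. Their called share was 66.7%, against 60.0% of all genes tested and 79.4% of genes at or above the median level. GPS1 and COPS7B rose by 0.55 and 0.57, COPS7A by 0.26 and COPS8 by 0.18, whereas COPS6 and COPS3 fell by 0.45 and 0.26. The COPS8 call (adjusted p = 0.0202) ended without SAHA replicate 2 or 3, without control replicate 1 or 2 and with the unmoderated test (adjusted p up to 0.0771). Of 7 measured genes of the translation factor eIF3 with related folds, 1 rose and 3 fell, a called share of 57.1%, with a median of -0.051. EIF3A fell by 0.52 (adjusted p = 1.46e-05) and EIF3E by 0.25 (adjusted p = 0.0144, but 0.0524 without control replicate 1 and 0.0647 with the unmoderated test). EIF3F at -0.13 (-0.086 and not called as the mean of its probe sets) and EIF3H at 0.13 were called, but both calls ended with the replicate block (adjusted p = 0.0683 for EIF3F and 0.0671 for EIF3H). Of the fits that left out an array, the call of EIF3F held when control replicate 2 was left out, and that of EIF3H when control replicate 1 or 3 was. The other such fits ended them.

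**Figure D4:**
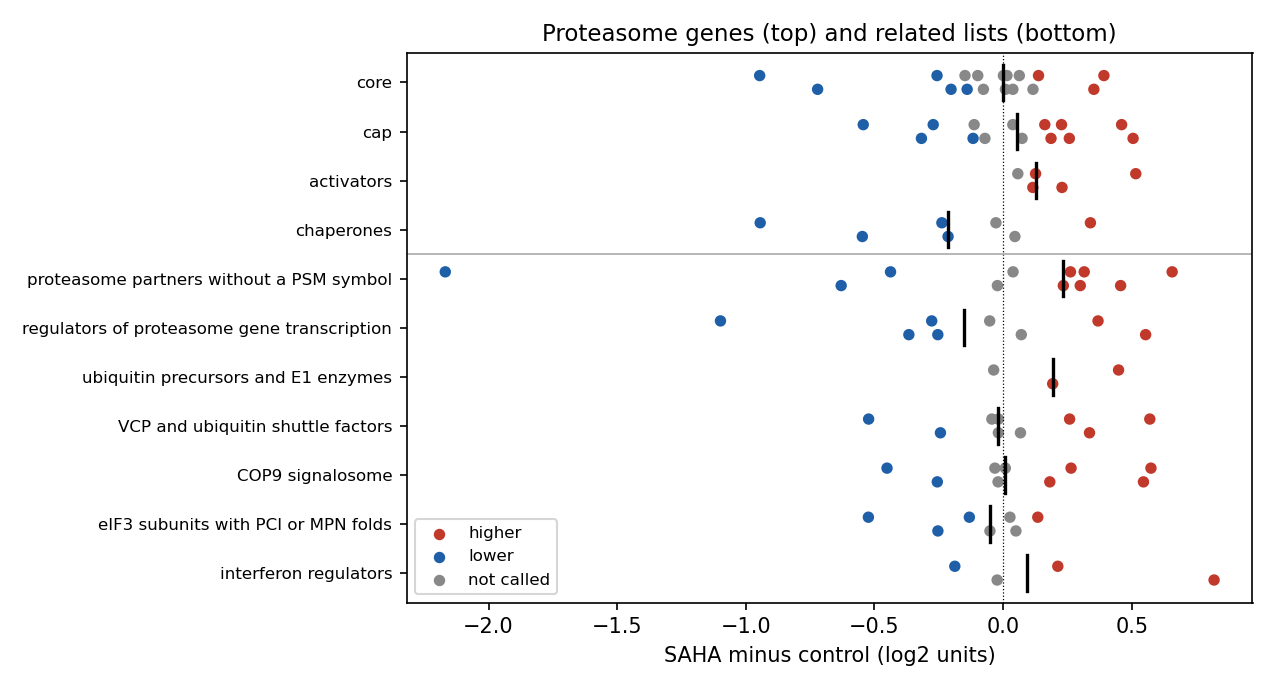
Change of every measured gene (horizontal axis, SAHA minus control, log2 units) in the 4 parts of the proteasome (top) and in the related lists (bottom). Each point is a gene, coloured by its call, and the black bar is the median of the row. The proteasome genes lie between -0.95 and 0.52, and the point furthest to the left is ECPAS at -2.17.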

How the data were processed

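Per the labels' protocols, Trizol total RNA was labelled with the Ambion WT Expression Kit for Affymetrix whole-transcript arrays. The authors deposited a signal intensity per probe set, made with RMA per the submitters' processing notes. For the RMA software, its version and the annotation, nothing is given in the sources used here. The deposited intensity values are linear (6.56 to 20338), so log2 was taken. Of 33252 probe sets, 19460 named exactly 1 gene in GEO's platform annotation. Current symbols were taken from a RefSeq table by Entrez identifier (19429 matched, and the other 31 kept the older symbol). Of a gene's probe sets the brightest on average over the 6 arrays was used, giving 18417 genes with no filter on dim ones.

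SAHA and control were compared with limma 3.58.1 in R 4.3.3 (lmFit, eBayes, no covariates). P-values were adjusted by Benjamini-Hochberg over all genes. No set test was made. Scripts were tested on simulated data. Symbols that carry further letters after the number were not counted as members. The members and lists were chosen with earlier results of these data known. Every member may be named, with values per array for the 4 largest rises and falls and for members called against most called members of their part. From other lists the 3 largest called changes and all opposing calls are named. Further genes, and further values per array, were chosen after their values were seen. Tried as alternatives were another quantile normalization, median centring, cyclic loess, a filter on genes under the median level and averaged probe sets. Others were trend and robust eBayes, an unmoderated test, the replicate block, each array left out and wider membership. The second probe sets of PSMC1 and PSMC6 were added after seeing the data. The number of arrays limits the precision.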

Additional observations from a re-analysis of the deposited data

How the results depend on the processing

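Of the 27 called members, 22 were called in the same direction under every alternative tried, 5 (PSMB2, PSMB7, PSMD11, PSME3 and PSMF1) lost the call in some, and 0 reversed. Of those 22, PSMC4 and PSMA1 came nearest the threshold, with limma adjusted p up to 0.04997 and 0.0490 over the alternatives. Of 16 uncalled members, 8 were called in some alternative, such as PSMD8 (adjusted p = 0.0137) after a further quantile normalization. The same count was not made over all genes. Same-numbered arrays did not deviate together (correlations of -0.030, -0.17 and -0.0042), so the numbers were not taken as pairs. With the replicate block 11 of the 43 members were higher and 11 lower, and 2 activator genes were higher. Over all 18417 genes that fit called 5520 higher and 5081 lower.

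The further quantile normalization gave median changes of -0.0028 for all members, -0.044 for the core, 0.023 for the cap, 0.087 for the activators and -0.24 for the chaperones, with 2 activator genes higher. Cyclic loess gave -0.025 for the core. Leaving out genes under the median level gave medians of 0.038 for all members and -0.12 for the chaperones, and 3660 genes higher among the 9209 tested, since fewer genes were tested. Leaving out an array gave 2 to 3 genes higher among the activators and PSMF1, and a median of 0.013 to 0.029 over all members. The cause of the other shifts was not tested.

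Signs turned for uncalled genes alone. After the further quantile normalization these were PSMA2 (-0.042), PSMA6 (-0.044), PSMB4 (-0.0028), SEM1 (0.021), UBA6 (0.012), FAF1 (2.9e-05), COPS4 (0.0016), COPS5 (0.0083), COPS2 (-0.027), EIF3L (-0.022) and EIF3M (-0.015). With cyclic loess they were PSMA2 (-0.017), PSMA6 (-0.025) and COPS2 (-0.010). Over the fits without an array they were PSMA2 (-0.0100 to 0.030), PSMA6 (-0.0014 to 0.024), PSMA7 (-0.011 to 0.015), SEM1 (-0.055 to 0.019), COPS4 (-0.061 to 0.014), COPS5 (-0.068 to 0.0077), COPS2 (-0.025 to 0.033), EIF3M (-0.0058 to 0.053) and NLRC5 (-0.052 to 0.0036). No background calls were made, so whether PSMA8, PSMB11, PSMB10 and PSMG4, all under the median level of all genes, lie above background is not known.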

Other observations

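Genes near the membership rule also moved. PSMC3IP, a meiotic recombination factor that carries a proteasome symbol, fell to 6.49 ± 0.19 in SAHA, against 7.76 ± 0.07 in control (SD, n = 3 each, change -1.27, limma adjusted p = 7.79e-06). PSME3IP1, which binds PSME3, fell by 0.28. The immunoproteasome gene PSMB9 fell by 0.61, with 9.60 ± 0.05 in SAHA and 10.20 ± 0.09 in control, and PSMB8 was not called (-0.13, limma adjusted p = 0.417).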
